A study of Mus musculus with 16 samples.

Results

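The odorant receptor genes numbered Olfr1000 to Olfr1150 on mouse chromosome 2 were followed across sorted cells of the olfactory mucosa. They were taken as every array row whose probe set name starts with the chromosome 2 prefix and whose platform gene symbol falls in the number range Olfr1000 to Olfr1150. This gave 101 probe sets for 101 genes, 100 protein-coding receptors and the pseudogene Olfr1077-ps1. They were 101 of 284 odorant receptor probe sets on chromosome 2, of 1091 odorant receptor probe sets in all, and of 22206 probe sets tested.

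The mice were C57BL/6 animals of both sexes, 7 to 12 weeks old, and all carried S100a5-tauGFP, a tau-linked green fluorescent protein reporter expressed from S100a5, a gene whose transcription in olfactory sensory neurons follows their activity. Single mice sat in clean air chambers for 40 h, and from 26 h on they received pulses of 10 s every 20 min of undecanal, a straight-chain aldehyde odorant, or of filtered air as vehicle. The olfactory mucosa of 3 mice was pooled, dissociated and sorted on GFP, and both sort fractions of each of 4 undecanal and 4 vehicle pools were hybridised to Clariom S arrays. The 16 arrays fell into 4 groups of 4 by their titles, namely undecanal titled GFP+, vehicle titled GFP+, undecanal titled GFP- and vehicle titled GFP-. The number of arrays limits the precision, and a pool stands for its 3 mice. In sorted bulk samples, fewer cells with a receptor and less receptor mRNA per cell cannot be told apart.

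The titles and the characteristics of all 16 arrays give opposite GFP signs. S100a5, which drives the reporter, had log2 values of 15.62 to 15.96 in undecanal arrays titled GFP+, against 16.45 to 17.06 in undecanal arrays titled GFP-. In vehicle arrays it had 15.54 to 15.84 titled GFP+, against 16.37 to 16.91 titled GFP-. It was thus lower in the fraction titled GFP+ in 8 of 8 pools, by -0.97 in undecanal pools and -0.91 in vehicle pools on the log2 scale, and passed by limma in all 18 alternative settings. The fractions are therefore named by their titles only, and if the characteristics hold the true sign, every difference between fractions and every interaction below turns its sign.

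Odorant receptors are G protein-coupled receptors of olfactory sensory neurons. A mature neuron transcribes mainly a single receptor gene from a single allele, so the level of a receptor mRNA in a cell sample follows how many neurons chose it and how much each transcribes. Receptor genes lie in clusters on many chromosomes, and the chromosome 2 receptors are class II receptors, the large tetrapod class. Choice of a receptor gene involves homeodomain factors such as Lhx2 and Ebf factors, which bind promoters and distant enhancers. Olfr1019 is the member with a well-known ligand, the fox odour trimethylthiazoline (TMT).

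Near-identical receptors can share array signal, so the sequences that bear on single values are shown first. RefSeq start windows of assembly GRCm38.p6 (250 bases before to 50 after the annotated gene start) were at hand for 78 of the 101 genes, and 56 of these windows (71.8%) open the gene at the start codon. For those 56 genes the last 50 bases are the start of the coding sequence. The pair Olfr1049 (chr2:86255642-86255691) and Olfr1051 (chr2:86276436-86276485), both on the minus strand, lie next to each other in the order of measured receptors and are identical over these 50 bases, with no capitals since no base differs:
Olfr1049: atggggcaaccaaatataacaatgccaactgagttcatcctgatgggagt
Olfr1051: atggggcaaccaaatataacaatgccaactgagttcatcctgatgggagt
The neighbours Olfr1013 (chr2:85769803-85769852) and Olfr1014 (chr2:85776586-85776635), on the plus strand, share 40 of 50 bases. Capitals mark the 10 positions that differ:
Olfr1013: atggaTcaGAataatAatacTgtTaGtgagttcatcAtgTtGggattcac
Olfr1014: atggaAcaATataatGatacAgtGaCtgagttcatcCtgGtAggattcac
Olfr1043 (chr2:86162898-86162947) and Olfr1044 (chr2:86171766-86171815), neighbours on the minus strand, share 33 of 50 bases and differ at 17, again in capitals:
Olfr1043: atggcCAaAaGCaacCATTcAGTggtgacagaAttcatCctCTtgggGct
Olfr1044: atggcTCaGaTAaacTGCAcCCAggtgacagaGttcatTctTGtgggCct
The identical pair moved together between the sort fractions and the members of both differing pairs moved apart, as the values below show. These pairs are examples and do not tie identity to behaviour. Olfr1121 and Olfr1129 share 41 of 50 bases and moved together, at -1.32 and -1.76 in undecanal pools and -1.95 and -1.90 in vehicle pools. In vehicle pools the sign was the same in 71.4% of 14 pairs with at least 80% identity, against 61.7% of 1526 pairs under 80%. Identity over these 50 bases says nothing of where the array's probes lie.

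The start windows of the receptors at both ends of the range of differences are shown whole, with the sites searched for in capitals. Olfr1140 was the highest member in arrays titled GFP+ relative to titled GFP-. Its window is chr2:87745911-87746210 on the plus strand and holds 1 match to TAATNA, a homeodomain-type site:
Olfr1140: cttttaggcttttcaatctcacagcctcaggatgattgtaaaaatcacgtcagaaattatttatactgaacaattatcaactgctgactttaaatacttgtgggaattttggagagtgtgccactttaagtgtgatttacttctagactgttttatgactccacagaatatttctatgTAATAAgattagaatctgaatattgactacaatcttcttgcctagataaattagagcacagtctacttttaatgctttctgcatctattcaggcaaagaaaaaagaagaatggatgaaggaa
Olfr1093 was the lowest member, and its window is chr2:86782295-86782594 on the plus strand, with 1 match to CCCNNGGG, an Ebf-type site:
Olfr1093: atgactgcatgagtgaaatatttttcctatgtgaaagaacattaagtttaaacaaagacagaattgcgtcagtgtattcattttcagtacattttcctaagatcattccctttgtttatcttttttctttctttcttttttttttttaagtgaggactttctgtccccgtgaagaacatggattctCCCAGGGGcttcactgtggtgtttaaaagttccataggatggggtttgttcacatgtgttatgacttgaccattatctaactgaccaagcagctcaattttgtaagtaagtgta
Both strands of every window were searched, and every TAATTA is also a TAATNA. The looser TAATNA stood in 57 of the 78 windows (73.1%), in 65.2% of 870 windows of other odorant receptors and in 26.5% of all 32851 windows of the table. TAATTA stood in 15 windows (19.2%), against 18.5% for other odorant receptors and 5.29% for all windows. CCCNNGGG stood in 2 windows (2.56%), against 3.1% and 13.7%. Among the receptors that were higher in arrays titled GFP+ of vehicle pools, 7 of 11 windows held TAATNA (63.6%), and among those that were lower, 34 of 44 held it (77.3%). TAATTA went the other way, with 2 of 11 windows (18.2%) and 7 of 44 (15.9%). Among receptors that did not pass there, 16 of 23 windows held TAATNA (69.6%) and 6 of 23 held TAATTA (26.1%). These are matches of letters in the window. Windows that open at a start codon lie at the coding start and not at a known transcription start. Such windows were 71.8% of those of the members, 72.4% for other odorant receptors and 5.83% of all windows of the table. The shares over all windows are therefore from windows of a different kind.

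Most of the receptors gave signal. The background level was set at log2 4.80, which 95% of the group means of 356 vomeronasal and bitter taste receptor probe sets stay under. These are receptor families that mature olfactory neurons do not normally use. Group means of 91 of the 101 receptors lay above it in at least 1 group and of 80 in all 4 groups. The 10 that stayed below it in every group were Olfr1023, Olfr1040, Olfr1053, Olfr1061, Olfr1066, the pseudogene Olfr1077-ps1, Olfr1128, Olfr1136, Olfr1141 and Olfr1145. The number above background was 86 in undecanal arrays titled GFP+, 84 in vehicle arrays titled GFP+, 88 in undecanal arrays titled GFP- and 87 in vehicle arrays titled GFP-.

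Between the sort fractions, the receptors of this stretch were more often lower than higher in arrays titled GFP+. In undecanal pools 16 of 101 passed as higher (15.8%) and 48 as lower (47.5%) by limma at a Benjamini-Hochberg adjusted p under 0.05, where 8.83% of all 22206 probe sets passed as higher and 4.36% as lower. In vehicle pools 17 passed as higher (16.8%) and 52 as lower (51.5%), where the shares over all probe sets were 8.82% and 5.12%. At an unadjusted p under 0.05 there were 74 members in undecanal pools, where 24.1% of all probe sets reached it, and 75 in vehicle pools, where 25.8% did. The background of lower calls moves with the scaling, since centring each array on its own median put 50.1% of all probe sets in undecanal pools and 50.6% in vehicle pools in the lower class. Under that scaling 62 members in undecanal pools and 61 in vehicle pools were lower.

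The share of lower calls was above that of other receptors, a comparison made without a test. Of the other 183 chromosome 2 receptors, 51 were higher (27.9%) and 54 lower (29.5%) in undecanal pools, and 48 higher (26.2%) and 60 lower (32.8%) in vehicle pools. Of all 990 other odorant receptors, 25.1% were higher and 32.2% lower in undecanal pools, and 23.2% higher and 34.5% lower in vehicle pools. The median log2 difference over the 101 members was -0.94 in undecanal pools and -1.09 in vehicle pools. In undecanal and vehicle pools it was -0.06 and -0.08 over the other chromosome 2 receptors, -0.21 and -0.33 over all other odorant receptors, and -0.11 and -0.11 over all probe sets. The median receptor value of an array ran from 7.66 to 8.08 in undecanal arrays titled GFP+, against 8.26 to 8.66 in undecanal arrays titled GFP-. In vehicle arrays it ran from 7.41 to 8.30 titled GFP+, against 8.49 to 9.11 titled GFP-, so the fractions did not overlap under either agent.

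**Figure D1:**
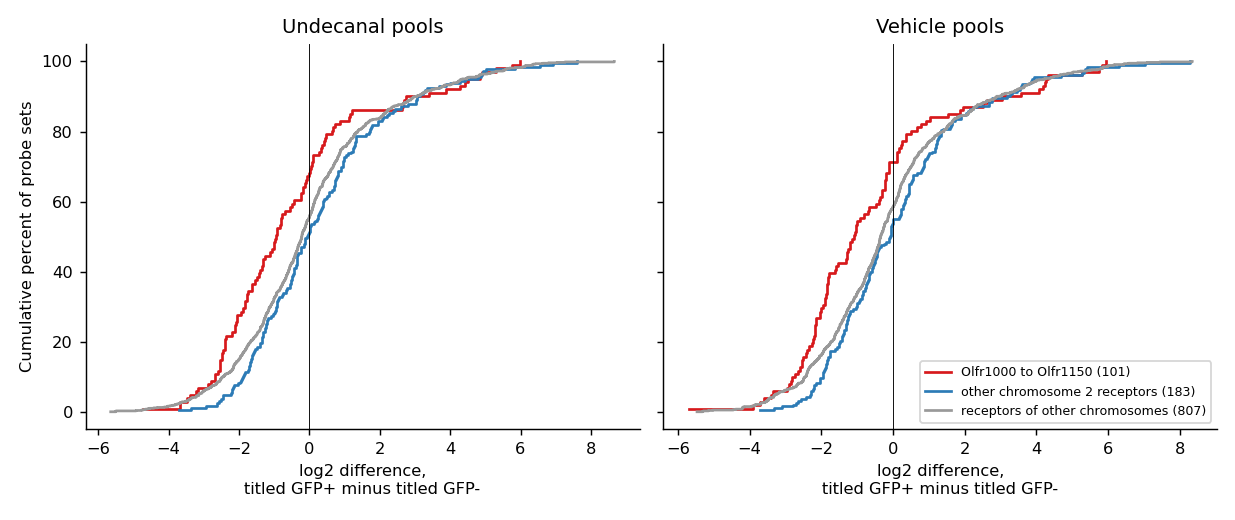
Cumulative percent of odorant receptor probe sets (vertical axis) by log2 difference between sort fractions, titled GFP+ minus titled GFP- (horizontal axis), in undecanal pools (left) and vehicle pools (right). The line of the 101 receptors Olfr1000 to Olfr1150 lies left of the lines of the other 183 chromosome 2 receptors and of 807 receptors of other chromosomes through most of the range, with medians of -0.94 in undecanal pools and -1.09 in vehicle pools, and meets them at the high end.

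The receptors that were higher in arrays titled GFP+ were few and far from 0. Among those passing in vehicle pools, the median difference of the 17 higher ones was 4.09 and that of the 52 lower ones -2.15, and 13 members lay above 2 while 30 lay below -2. In undecanal pools the medians were 4.07 and -2.12. All 12 of the highest members named here were higher in the fraction titled GFP+ in 4 of 4 undecanal and 4 of 4 vehicle pools.

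Olfr1140 had log2 values of 12.80, 12.74, 11.82 and 12.67 in undecanal pools 1 to 4 titled GFP+, against 7.02, 5.83, 6.06 and 7.16 titled GFP-. In vehicle pools 1 to 4 it had 12.71, 12.60, 11.90 and 13.03 titled GFP+, against 6.41, 7.53, 6.10 and 6.38 titled GFP-. All 8 arrays titled GFP+ lay far above all 8 titled GFP-, with no overlap. The difference was 5.99 (SE 0.351, adjusted p = 7.99e-10) in undecanal pools and 5.96 (SE 0.351, adjusted p = 7.75e-10) in vehicle pools, or 63.6-fold and 62.1-fold.

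The stretch from Olfr1042 to Olfr1046 held 3 of the 4 receptors with the largest positive differences in vehicle pools. Olfr1046 had 12.31, 12.34, 12.51 and 12.55 in undecanal pools titled GFP+, against 7.71, 6.84, 6.27 and 5.87 titled GFP-. In vehicle pools Olfr1046 had 12.22, 12.31, 12.50 and 11.72 titled GFP+, against 6.42, 7.49, 5.88 and 5.94 titled GFP-. Its difference was 5.75 under both agents, 54.0-fold. Olfr1042 averaged 10.50 ± 0.58 in undecanal pools titled GFP+, against 5.19 ± 0.58 titled GFP-, and 10.57 ± 0.26 in vehicle pools titled GFP+, against 4.73 ± 0.91 titled GFP- (SD, n = 4 each). Of its arrays titled GFP-, 1 of 4 undecanal and 3 of 4 vehicle arrays lay under the background level, so its differences of 5.31 and 5.85 rest on a floor on the dim side. Olfr1043 averaged 10.21 ± 0.39 in undecanal pools titled GFP+, against 5.69 ± 1.08 titled GFP-, and 10.37 ± 0.43 in vehicle pools titled GFP+, against 5.09 ± 0.87 titled GFP- (SD, n = 4 each). Of its arrays titled GFP-, 1 of 4 lay under the background level under each agent. Olfr1044 and Olfr1045, which lie between Olfr1043 and Olfr1046, went the other way. Olfr1044 differed by -2.10 in undecanal pools and -2.19 in vehicle pools, and Olfr1045 by -1.84 and -1.89.

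Olfr1019, the TMT receptor, had 12.48, 12.48, 11.86 and 12.20 in undecanal pools titled GFP+, against 7.88, 7.77, 7.97 and 5.79 titled GFP-. In vehicle pools it had 12.58, 12.75, 12.77 and 12.24 titled GFP+, against 8.42, 8.34, 9.18 and 7.04 titled GFP-. The fractions did not overlap, and the pool 4 arrays titled GFP- were the dimmest under each agent. It was higher by 4.90 (SE 0.433, adjusted p by limma = 1.49e-07) in undecanal pools and by 4.34 (SE 0.433, adjusted p = 6.86e-07) in vehicle pools. Its neighbour Olfr1018 was also higher, by 2.76 and 2.63, while the next receptor, Olfr1020, differed by 0.03 in undecanal pools and by -0.92 in vehicle pools.

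The other 7 receptors named for the highest differences had smaller values or a wider spread. Olfr1123 was higher by 4.83 in undecanal pools and 4.27 in vehicle pools, and Olfr1039 by 4.43 and 4.25. For Olfr1039, 2 of 4 undecanal and 1 of 4 vehicle arrays titled GFP- lay under the background level, so its differences also rest on a floor. Olfr1030 was higher by 4.27 and 4.09, with pool 1 of each agent apart in the fraction titled GFP-. Its arrays titled GFP- read 10.39 in undecanal pool 1 against 7.20 to 8.63 in the other undecanal pools, and 10.56 in vehicle pool 1 against 6.63 to 8.39 in the other vehicle pools. Without undecanal pool 1 its difference in undecanal pools was 5.05, and without vehicle pool 1 its difference in vehicle pools was 4.86, and both passed. Olfr1002 was at or near background in arrays titled GFP-. All 4 undecanal arrays titled GFP- lay under the background level, which makes it at least 11.9-fold higher titled GFP+ in undecanal pools, a bound of 8.38 ± 0.62 (SD, n = 4) against log2 4.80 (adjusted p by limma = 2.65e-07). In vehicle pools 2 of 4 of its arrays titled GFP- lay under that level and the difference was 4.20. Olfr1109 was higher by 2.68 in undecanal pools and 3.58 in vehicle pools, and Olfr1118 by 2.67 and 3.03. For Olfr1109, 1 of 4 arrays titled GFP- lay under the background level under each agent. Olfr1110, next to Olfr1109, passed as well, at 2.64 and 2.50.

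Olfr1093 stood at the other end. It had 4.80, 5.46, 5.91 and 5.52 in undecanal pools titled GFP+, against 9.67, 9.97, 10.15 and 10.82 titled GFP-. In vehicle pools it had 4.23, 4.84, 3.81 and 5.63 titled GFP+, against 9.39, 10.95, 10.41 and 10.59 titled GFP-. The fractions were apart in every pool, and the arrays titled GFP+ sat around the background level, with 1 of 4 undecanal and 2 of 4 vehicle arrays under it. The difference was -4.73 (SE 0.378, adjusted p = 4.11e-08) in undecanal pools, or 26.5-fold lower. In vehicle pools the fitted difference was -5.71 (SE 0.378, adjusted p = 3.39e-09), and no fold is given, since the mean of the arrays titled GFP+, 4.63, lay under the background level.

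Olfr1099, Olfr1037 and Olfr1009 followed, all well above background in both fractions. Olfr1099 had 10.01, 7.90, 8.85 and 9.60 in undecanal pools titled GFP+, against 12.44, 12.20, 12.83 and 13.55 titled GFP-. In vehicle pools it had 8.66, 9.22, 10.04 and 9.98 titled GFP+, against 13.64, 13.43, 13.24 and 13.18 titled GFP-. It was lower titled GFP+ in every pool, by -3.66 in undecanal pools and -3.90 in vehicle pools. Olfr1037 had the tightest groups of the 12 lowest receptors, with an SE of 0.227. It averaged 8.48 ± 0.43 in undecanal pools titled GFP+, against 11.97 ± 0.27 titled GFP-, and 7.90 ± 0.40 in vehicle pools titled GFP+, against 11.51 ± 0.22 titled GFP- (SD, n = 4 each). Its difference was -3.49 in undecanal pools and -3.61 in vehicle pools. Olfr1009 differed by -3.66 and -3.71 with a wider spread, since its vehicle arrays titled GFP+ ran from 7.13 to 9.71.

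The remaining receptors named for the lowest differences lay closer together. Olfr1132 differed by -3.40 in undecanal pools and -3.41 in vehicle pools, Olfr1111 by -3.23 and -3.34, and Olfr1134 by -2.87 and -2.97. Olfr1130 differed by -2.67 and -2.83, Olfr1028 by -2.53 and -2.73, Olfr1013 by -2.46 and -2.65, and Olfr1054 by -2.39 and -2.83. Olfr1034 was the least steady of the 12. Its vehicle arrays titled GFP+ read 7.03, 9.96, 11.19 and 9.98, with pool 1 far below the others, against 12.25, 13.08, 12.62 and 11.86 titled GFP-. In undecanal pools it read 11.25, 10.53, 10.31 and 10.60 titled GFP+, against 12.55, 12.97, 12.07 and 12.42 titled GFP-. Its difference was -1.83 in undecanal pools (adjusted p by limma = 0.0432) and -2.91 in vehicle pools (adjusted p = 0.00148). Without vehicle pool 1 the difference in vehicle pools was -2.14 and still passed, and in undecanal pools 8 of 18 alternative settings ended the call, with an adjusted p of up to 0.193.

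**Figure D2:**
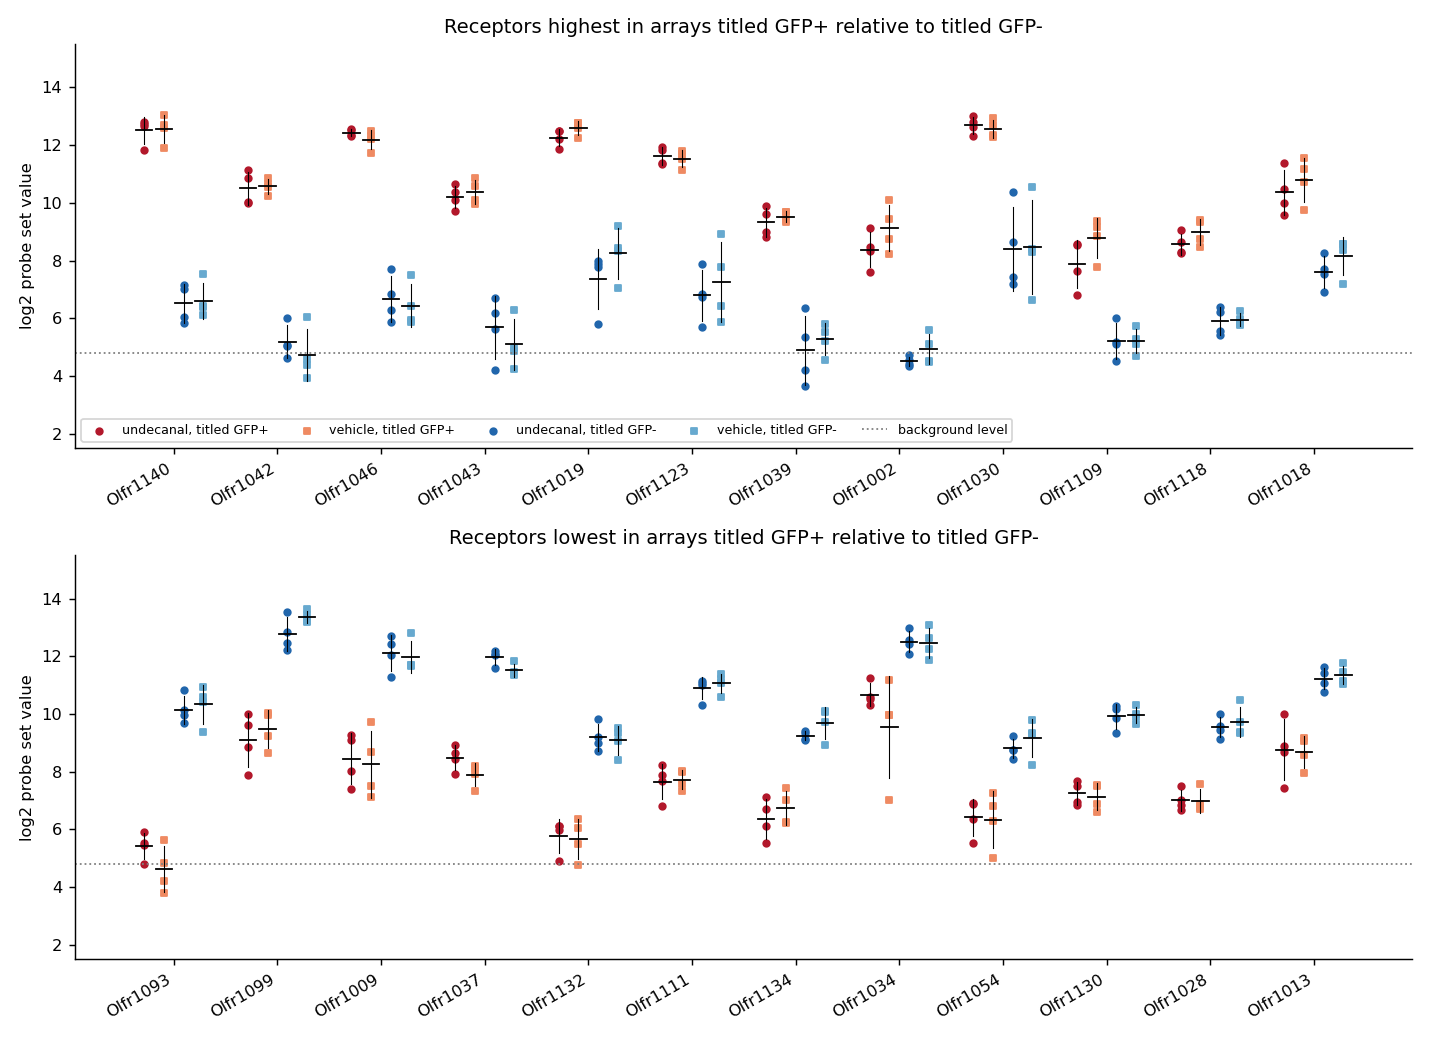
Log2 probe set values (vertical axis) of the 12 receptors with the highest (top) and the 12 with the lowest (bottom) differences between sort fractions among those passing in vehicle pools. Points are single arrays, horizontal bars are means and vertical lines are SD over 4 pools; from left to right, each receptor shows undecanal titled GFP+, vehicle titled GFP+, undecanal titled GFP- and vehicle titled GFP-, and the dotted line is the background level of 4.80. Olfr1140 stands at 11.82 or above in all 8 arrays titled GFP+ and at 7.53 or below in all 8 titled GFP-, and Olfr1093 at 5.91 or below titled GFP+ and at 9.39 or above titled GFP-.

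Over single pools, 51 of the 101 receptors were lower in the fraction titled GFP+ in 8 of 8 pools, 19 were higher in 8 of 8 and 31 had mixed signs. In undecanal pools the 4 arrays of each fraction did not overlap for 58 receptors, 15 higher and 43 lower titled GFP+, where 9.43% and 7.83% of all probe sets did so. In vehicle pools they did not overlap for 19 higher and 50 lower receptors, where the shares over all probe sets were 9.83% and 8.26%. Olfr1128, below background in all 4 groups, passed as lower under both agents and gets no fold. Olfr1105 was under background in all 8 arrays titled GFP+ and was at least 3.14-fold lower there in undecanal pools (6.45 titled GFP- as the brighter mean) and at least 3.21-fold lower in vehicle pools (6.48 titled GFP-).

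Differences of opposite sign stood side by side along the chromosome. Of the 100 pairs of neighbouring receptors in their chromosomal order, 13 in undecanal pools and 15 in vehicle pools passed in opposite directions, 28 and 29 were both lower and 3 and 3 both higher. These counts also depend on how many members passed in each direction. They were not set against all pairs of members, so they show no effect of order. The signs of neighbours were the same in 63% of pairs in undecanal pools, against 56.3% of all pairs of members, and in 59% in vehicle pools, against 58.7%. The longest run of receptors passing as lower was 6, from Olfr1099 to Olfr1105 under both agents, and in undecanal pools also from Olfr1126 to Olfr1132. Olfr1013, at -2.46 in undecanal pools and -2.65 in vehicle pools, lies beside Olfr1014, at 0.73 and 1.53, and Olfr1014 passed in vehicle pools only (adjusted p by limma = 0.195 in undecanal pools and 0.00364 in vehicle pools). These are the neighbours printed above with 10 differing bases.

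**Figure D3:**
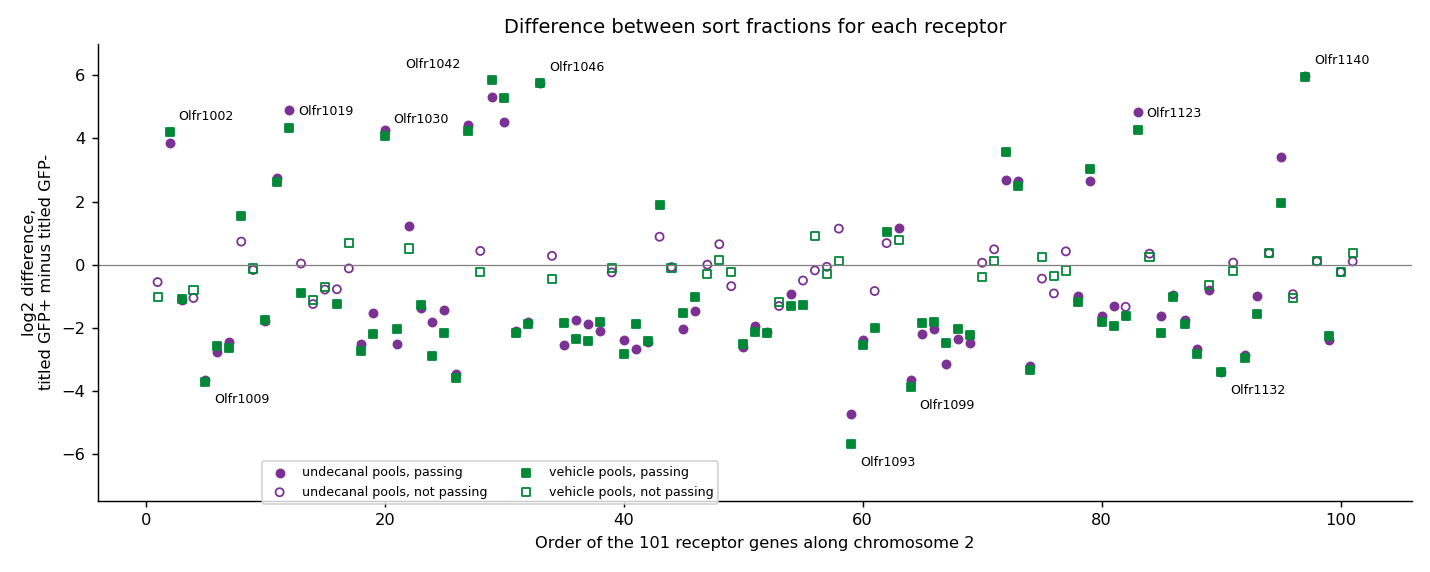
Log2 difference between sort fractions, titled GFP+ minus titled GFP- (vertical axis), of the 101 receptors in their order along chromosome 2 (horizontal axis, rank and not distance), with undecanal pools as circles and vehicle pools as squares and filled symbols for receptors passing at an adjusted p under 0.05. Receptors near 4 to 6, such as Olfr1042 and Olfr1046, stand among receptors near -2.

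Receptors with identical coding starts were set side by side. Olfr1049 and Olfr1051, printed above, differed by -1.76 and -1.88 in undecanal pools and by -2.36 and -2.42 in vehicle pools. Olfr1126 and Olfr1129, also identical over 50 bases, differed by -1.64 and -1.76 in undecanal pools and by -2.16 and -1.90 in vehicle pools. Olfr1057 and Olfr1062, identical as well, differed by -2.48 and -2.06 in undecanal pools and by -2.43 and -1.55 in vehicle pools. Over the 1540 pairs of the 56 receptors with a window at the start codon, the median gap in vehicle pools was 0.26 for the 5 pairs with at least 90% identity, 1.85 for the 9 pairs at 80% to under 90% and 1.62 for the 1526 pairs under 80%. In undecanal pools the median gaps of the same classes were 0.13, 0.61 and 1.62. Among the 5 pairs is that of Olfr1061 and Olfr1066, both below background in every group. Pairs of receptors share members, so these gaps are a description. How far shared probe signal enters the like values of near-identical receptors was not tested. At 92% identity, Olfr1058 passed as higher in vehicle pools and Olfr1066 did not pass, but Olfr1066 was below background in every group and all 8 arrays of Olfr1058 titled GFP- were too, so that Olfr1058 was at least 1.24-fold higher in vehicle pools.

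At the lower end of the number range the members Olfr1000, Olfr1002 and Olfr1006 differed by -0.56, 3.87 and -1.11 in undecanal pools, and the receptors just outside it, Olfr995, Olfr996 and Olfr998, by -0.76, -0.15 and -0.67. In vehicle pools the members had -1.02, 4.20 and -1.09, and the receptors outside -0.86, -0.52 and -1.30. At the upper end Olfr1143, Olfr1145 and Olfr1148 differed by -2.39, -0.24 and 0.10 in undecanal pools and by -2.26, -0.23 and 0.37 in vehicle pools. Just outside, Olfr1151, Olfr1152 and Olfr1153 differed by -2.93, -1.41 and -2.44 in undecanal pools and by -3.34, -1.03 and -1.81 in vehicle pools.

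The pattern between fractions was alike under both agents, which share no arrays. Of the 101 receptors 14 passed as higher in undecanal and in vehicle pools, 47 as lower in both, 29 in neither and 0 in opposite directions. Across the 101 receptors the differences in undecanal pools followed those in vehicle pools with Pearson r = 0.977 and Spearman rho = 0.954, given as a description, since receptors are not independent samples and the arrays share a platform. Passing in undecanal pools only were 3 receptors, the higher Olfr1032 (1.21) and Olfr1098 (1.16) and the lower Olfr1131 (-0.81). Passing in vehicle pools only were 8, the higher Olfr1014, Olfr1058 and Olfr1097 and the lower Olfr1020, Olfr1024, Olfr1086, Olfr1095 and Olfr1122. Passing under a single agent is no test of a difference between agents, which the interaction gives.

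**Figure D4:**
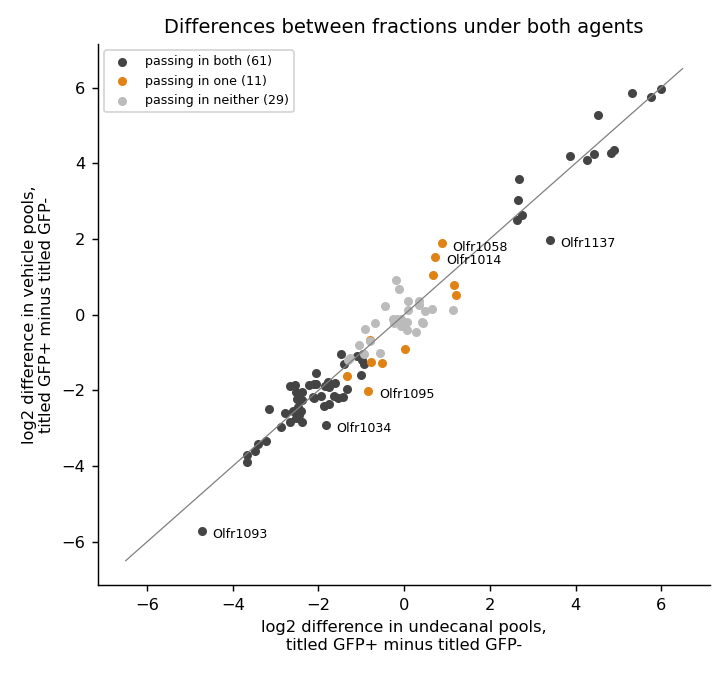
Log2 difference between sort fractions, titled GFP+ minus titled GFP-, in undecanal pools (horizontal axis) and in vehicle pools (vertical axis); each point is 1 of the 101 receptors and the line marks equal differences. The 61 receptors passing under both agents spread along the line from Olfr1093 at -4.73 and -5.71 to Olfr1140 at 5.99 and 5.96, and the 11 passing under a single agent lie near the middle.

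The assay asks which receptor mRNAs become enriched among reporter-bearing cells after an odorant. In the fraction titled GFP+, 0 of 101 receptors passed in undecanal against vehicle pools by limma, where 0.0045% of all probe sets passed as higher and 0% as lower. At an unadjusted p under 0.05 there were 8 receptors, 2 higher and 6 lower, where 2.72% of all probe sets reached it in either direction. The median difference was -0.07, and the median SE of a receptor was 0.336. The 4 undecanal and 4 vehicle arrays did not overlap for 0 higher and 1 lower receptor, where 1.11% and 0.761% of all probe sets were apart. That receptor, Olfr1097, had 12.17, 11.11, 12.44 and 12.33 in undecanal arrays titled GFP+, against 12.91, 12.89, 12.53 and 13.52 in vehicle arrays titled GFP+. It differed by -0.95 (SE 0.333, unadjusted p = 0.0109, adjusted p by limma = 0.999), which did not pass.

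The next smallest p in the fraction titled GFP+ belonged to Olfr1014, at -0.94, and Olfr1058, at -1.05. Olfr1014 had 7.71, 7.54, 8.32 and 7.87 in undecanal arrays, against 8.74, 8.95, 9.40 and 8.09 in vehicle arrays. Olfr1058 lay under the background level in 3 of 4 undecanal and 2 of 4 vehicle arrays of this fraction. Olfr1037 differed by 0.58, Olfr1062 by -0.59 and Olfr1115 by 0.69, all with an adjusted p by limma of 0.999. In all, 77 of the 101 differences lay within 0.5 of 0 on the log2 scale, and the largest had a size of 1.13. Olfr1019, the TMT receptor, averaged 12.25 ± 0.29 in undecanal arrays titled GFP+ and 12.58 ± 0.25 in vehicle arrays titled GFP+ (SD, n = 4 each).

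In the fraction titled GFP-, 0 of 101 receptors passed in undecanal against vehicle pools by limma, where 0% of all probe sets passed in either direction. At an unadjusted p under 0.05 there were 5 receptors, 1 higher and 4 lower, where 4.12% of all probe sets reached it. The median difference was -0.18, against -0.16 over the other chromosome 2 receptors, -0.09 over all other odorant receptors and 0.0043 over all probe sets, and 85 differences lay within 0.5 of 0. Arrays did not overlap for 1 higher receptor, Olfr1056, and 3 lower ones, Olfr1095, Olfr1126 and Olfr1143, where 1.18% and 1.02% of all probe sets were apart.

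Olfr1095 had the smallest p of the members in this fraction. It had 4.18, 4.34, 6.14 and 5.68 in undecanal arrays titled GFP-, against 6.75, 6.98, 7.27 and 6.65 in vehicle arrays titled GFP-. Every undecanal array lay below every vehicle array, and 2 of the 4 undecanal arrays lay under the background level. The difference was -1.83 (SE 0.351, 95% interval -2.56 to -1.09, unadjusted p = 6.83e-05), with an adjusted p by limma of 0.303, so it did not pass. In arrays titled GFP+ Olfr1095 had 4.11, 4.32, 4.03 and 4.52 in undecanal pools, all under background, against 4.31 to 5.45 in vehicle pools, where 1 of 4 was. Between fractions it was lower titled GFP+ in vehicle pools, by -2.01 (adjusted p by limma = 0.000439), and did not pass in undecanal pools, at -0.84 (adjusted p = 0.142).

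The other members with the smallest p in the fraction titled GFP- did not pass either. Olfr1112 differed by 0.98, with 11.68, 12.63, 11.61 and 10.84 in undecanal arrays against 11.28, 10.99, 10.44 and 10.11 in vehicle arrays, which overlapped. Olfr1047 differed by -0.93 and Olfr1090 by -0.92. Olfr1126 differed by -0.44 with tight groups, 10.45, 10.37, 10.07 and 9.98 in undecanal arrays against 10.65, 10.70, 10.56 and 10.73 in vehicle arrays. Olfr1020 differed by -0.62, and the 5 adjusted p by limma were all 1.000 when rounded to 3 decimals.

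**Figure D5:**
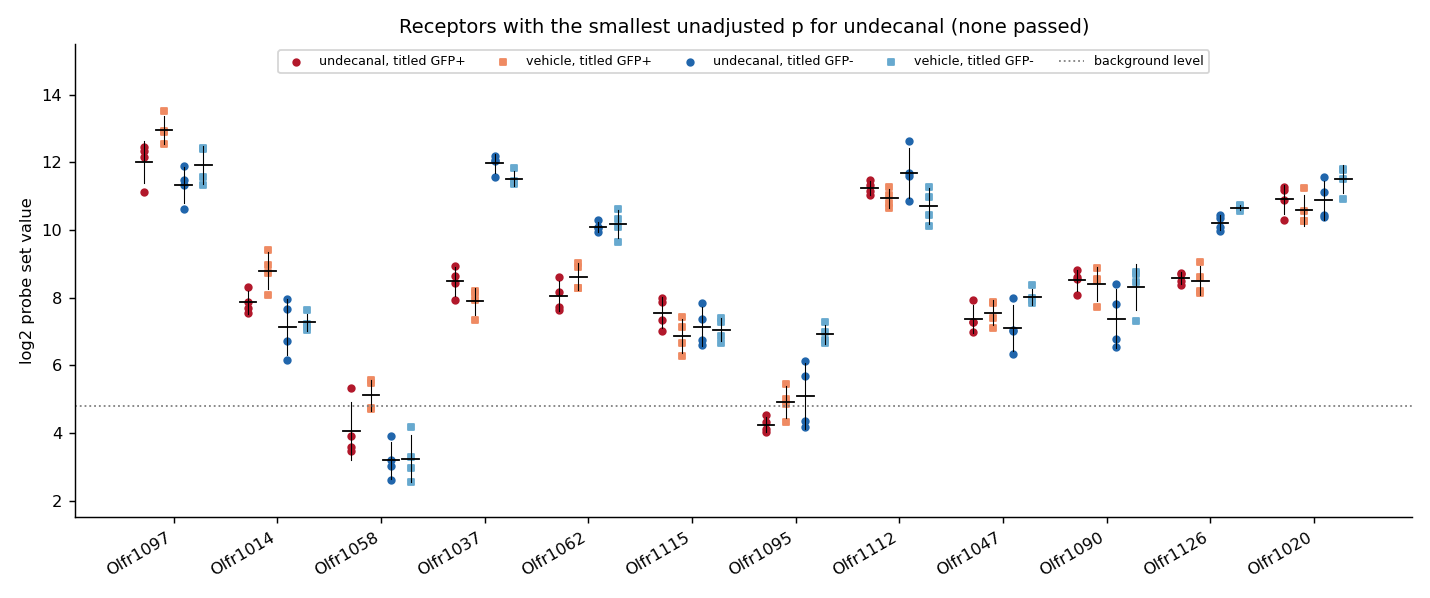
Log2 probe set values (vertical axis) of the 12 receptors with the smallest unadjusted p for undecanal against vehicle, 6 in the fraction titled GFP+ and 6 in the fraction titled GFP-. Points are single arrays, horizontal bars means, vertical lines SD over 4 pools, and the dotted line the background level of 4.80; from left to right, each receptor shows undecanal titled GFP+, vehicle titled GFP+, undecanal titled GFP- and vehicle titled GFP-. Olfr1095 shows undecanal arrays titled GFP- from 4.18 to 6.14 and vehicle arrays titled GFP- from 6.65 to 7.27, and no receptor passed.

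For the interaction, the undecanal difference titled GFP+ minus that titled GFP-, 0 of 101 receptors passed by limma, where 0% of all probe sets passed. At an unadjusted p under 0.05 there were 4 receptors, 3 higher and 1 lower, where 2.63% of all probe sets reached it. Olfr1095 had 1.16 (95% interval 0.12 to 2.21), Olfr1137 1.44, Olfr1020 0.95 and Olfr1087 -1.10, and the next were Olfr1032 with 0.71 and Olfr1126 with 0.52. The interval of Olfr1095 is not adjusted for the number of probe sets tested. Of the undecanal arrays of Olfr1095, 4 of 4 titled GFP+ and 2 of 4 titled GFP- lay under the background level. Its interaction thus rests on a floor. Olfr1137 had 9.20, 9.68, 8.21 and 7.50 in undecanal arrays titled GFP+, against 6.85, 8.57, 7.92 and 8.12 in vehicle arrays titled GFP+. In the fraction titled GFP- it had 6.24, 4.63, 5.10 and 5.01 in undecanal arrays, against 5.75, 6.10, 6.32 and 5.42 in vehicle arrays. Of these undecanal arrays, 1 of 4 lay under the background level. The agents overlapped in both fractions. For Olfr1019 the 95% interval of the interaction ran from -0.73 to 1.85. The median interaction was 0.09 over the members, 0.14 over the other chromosome 2 receptors and 0.12 over all other odorant receptors.

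Genes of the receptor machinery were set beside the receptors by list. Of 14 measured genes of receptor choice 1 was higher titled GFP+ in undecanal pools and 2 in vehicle pools, where 8.83% and 8.82% of all probe sets were. The list had median differences of -0.03 and 0.02, against -0.11 and -0.11 over all probe sets. Lbr, the lamin B receptor that holds heterochromatin at the nuclear rim, was higher by 0.99 in undecanal pools and 1.07 in vehicle pools, in 8 of 8 pools. Cbx5, a heterochromatin protein, differed by 0.44 in undecanal pools, which did not pass, and was higher by 0.72 in vehicle pools, where 13 of 18 alternative settings kept the call. Lhx2 differed by 0.01 in undecanal pools and -0.05 in vehicle pools, small enough that its sign turned with the scaling, and neither it nor its partner Ldb1 passed. Of 6 trafficking genes 0 passed by limma, with medians of -0.17 and -0.14, and 1 reached an unadjusted p under 0.05 in undecanal pools and 0 in vehicle pools. Of all probe sets, 24.1% in undecanal pools and 25.8% in vehicle pools reached it. Rtp2, which helps receptors to the cell surface, differed by -0.34 in undecanal pools and -0.23 in vehicle pools, and Ric8b, an exchange factor for the olfactory G protein, by -0.25 and -0.24.

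Of 13 measured transduction genes, 3 were lower titled GFP+ in undecanal pools and 4 in vehicle pools, and 0 were higher, where 4.36% and 5.12% of all probe sets were lower and 8.83% and 8.82% higher. The median differences of the list were -0.17 and -0.17. Pde1c, a calcium-dependent phosphodiesterase, was lower by -0.52 in undecanal pools and -0.65 in vehicle pools. Slc24a4, a sodium-calcium exchanger of the cilia, was lower by -0.44 and -0.60, and Ano2, the calcium-gated chloride channel, by -0.42 and -0.51. Pde4a differed by -0.38 in undecanal pools, which did not pass, and was lower by -0.53 in vehicle pools. Every one of these kept its sign in 18 alternative settings, but not its call in each. Slc24a4 passed in 7 of 18 settings in undecanal pools and 15 of 18 in vehicle pools, and Ano2 in 12 and 16, with calls lost under other settings as well as under other scalings. Of 8 measured genes with zonal expression in the mucosa 1 was lower under each agent, Slit1, an axon guidance ligand, by -0.59 in undecanal pools and -0.40 in vehicle pools, and it passed in 16 and 7 of 18 settings. The zone list had medians of -0.11 and -0.06. Nqo1, a dorsal zone marker, differed by -0.02 and -0.08, with a sign that turned with the scaling. Acsm4, also dorsal, differed by -0.02 in undecanal pools and 0.02 in vehicle pools. Of the ventral markers, Ncam2 differed by -0.21 and -0.40, Nrp2 by -0.20 and -0.38, and Plxna1 by 0.0035 and -0.05. Robo2 differed by 0.51 and 0.22, and Sema3f by -0.29 and 0.24. Apart from Slit1, no zonal gene passed. For undecanal against vehicle 0 genes of these 4 lists passed by limma in either fraction, and at an unadjusted p under 0.05 there were 0 in the fraction titled GFP+ and 1 zonal gene in the fraction titled GFP-. Of all probe sets, 2.72% in the fraction titled GFP+ and 4.12% in the fraction titled GFP- reached it.

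The fractions also differed in other cells. Of all probe sets, 8.83% in undecanal pools and 8.82% in vehicle pools were higher titled GFP+, and 4.36% and 5.12% were lower. The mature neuron markers had a mean level of 16.10 to 16.27 in undecanal arrays titled GFP+, 16.17 to 16.24 in vehicle arrays titled GFP+, 16.28 to 16.51 in undecanal arrays titled GFP- and 16.35 to 16.44 in vehicle arrays titled GFP-, and 1 of 8, Ano2, was lower titled GFP+. All 8 neutrophil and monocyte markers were higher titled GFP+ under both agents. Their mean level was 13.66 to 14.67 in undecanal and 14.02 to 14.68 in vehicle arrays titled GFP+, against 4.63 to 5.36 in undecanal and 4.63 to 5.50 in vehicle arrays titled GFP-. Of 6 immature neuron markers, 4 were higher titled GFP+ in undecanal pools and 5 in vehicle pools, with mean levels of 11.40 to 12.05 and 11.62 to 11.92 titled GFP+, against 9.07 to 9.39 and 9.12 to 9.42 titled GFP-. Under each agent 3 of 5 sustentacular markers, all 4 microvillar markers and both erythroid markers were higher titled GFP+. Gnai2 was higher there as well. It was the only measured gene of the vomeronasal list, since Trpc2 was missing, and by itself does not show vomeronasal neurons. Of 6 measured basal and cycling markers, 4 were higher in undecanal pools and 3 in vehicle pools. Mki67, Top2a and Kit passed under both agents and Neurog1 in undecanal pools only. Krt5, Trp63 and Neurog1 lay below background in all groups, so the Neurog1 call rests on dim signal. Krt5 differed by -0.38 in undecanal pools and -0.31 in vehicle pools and Trp63 by -0.55 and -0.24, and neither passed. Of 2 measured ensheathing markers, 0 passed by limma or reached an unadjusted p under 0.05. The part of these other cells in the differences of the receptors, and of listed genes such as Lbr and Cbx5, was not tested.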

How the data were processed

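The authors deposited a single table of log2 probe set values for the 16 Clariom S arrays. They used Affymetrix Expression Console, as per the submitters' processing notes. How probes were summarised, which software version ran and which annotation build was used is not given in the sources used here. Values from 1.44 to 19.7 entered as deposited. Arrays have no sequencing depth.

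From 28846 rows, 6640 controls were dropped, which left 22206 probe sets. A single gene symbol was given for 19572 of them, none for 2634 and several for 0. All 101 members matched RefSeq (GRCm38.p6) by gene identifier, and coordinates are printed only for RefSeq windows. Group means of the 4 groups were fitted over all 16 arrays with limma 3.58.1 (R 4.3.3, lmFit, eBayes), no block being used in the main model, and the code was tested on simulated data. The Benjamini-Hochberg adjustment ran over all 22206 probe sets, with a threshold of 0.05. Where all 4 arrays of a group lay under the background level, the brighter mean was set against that level and given as at least N-fold.

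Named were up to 12 highest and 12 lowest members passing in vehicle pools with the same sign in all 4 pools, the 6 smallest p of each other comparison, 3 genes on each side of both ends of the number range, receptors with near-identical coding starts, Olfr1019, and list genes passing (up to 4) or with the 2 smallest p. Olfr1105, Olfr1110, Olfr1128, receptors passing under a single agent or without overlap, and neighbours of named receptors were singled out after their values were seen. All 8 measured zonal genes are given. The members and lists were chosen with earlier results of these data known.

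Since 24 mice in groups of 3 form 8 pools, both fractions with the same agent and number come from the same mice. Their deviations from group means had r between 0.050 and 0.271, and r exceeded 0.1 in 6 of 8 pools. Between arrays, r was 0.989 to 0.993 inside a group and 0.953 to 0.975 across fractions, and 0 pairs were identical. Alternatives changed the scaling, the filter on dim probe sets, the variance model, the array weights, the samples fitted, the block, the pools included and the background percentile. Figures were drawn with matplotlib 3.10.9 in Python 3.11.15.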

Additional observations from a re-analysis of the deposited data

Results flagged for a closer look

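In groups of 4 arrays, 5 single values of named receptors stood apart from the other 3 of their group, with a gap past Dixon's 95% critical value. They were found among 152 groups of 38 receptors, and chance flags about 1 in 20 groups. Olfr1140 had 11.82 in undecanal pool 3 titled GFP+, against 12.67 to 12.80 in the other undecanal pools. Olfr1132 had 4.90 in undecanal pool 1 titled GFP+, against 5.99 to 6.13 in the others. Olfr1019 had 5.79 in undecanal pool 4 titled GFP-, against 7.77 to 7.97 in the others. Olfr1009 had 12.80 in vehicle pool 3 titled GFP-, against 11.66 to 11.71 in the others, and Olfr1018 had 7.19 in vehicle pool 4 titled GFP-, against 8.35 to 8.56. All 5 receptors kept their call and their sign between fractions when that pool was left out.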

How the results depend on the processing

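Over 18 alternative settings the counts of receptors passing between fractions stayed within 1.5 times and none changed sign: 15 to 19 higher and 39 to 62 lower in undecanal pools, and 16 to 19 higher and 44 to 61 lower in vehicle pools. Leaving out each pool in turn gave 15 to 17 higher and 39 to 47 lower in undecanal pools, and 16 to 18 higher and 44 to 53 lower in vehicle pools. The median over the members in undecanal pools moved to -1.30 with array median centring. In vehicle pools it moved to -1.45 with array median centring, -0.91 with centring on the mature neuron list, -0.85 with centring on the receptor median and -1.27 without dim probe sets; the cause was not tested. Array median centring also moved the median of all probe sets to -0.46 in undecanal pools and -0.47 in vehicle pools. The pool as a fixed replicate block gave 19 higher and 50 lower in undecanal pools and 19 higher and 55 lower in vehicle pools, and a random replicate block (correlation 0.167) 17 and 51, and 17 and 52; the fixed block cannot estimate undecanal against vehicle within a fraction and was run for the fractions and the interaction only. Under the random block 0 receptors passed for undecanal, and under either block 0 for the interaction, as in every other setting run. Of 864 values of named receptors between fractions 856 kept their call, and the other 8 were all Olfr1034 in undecanal pools, weaker. All 306 for undecanal and the interaction stayed on the same side. With the 99th percentile as background level (5.79), 87 in place of 91 receptors lay above it in at least 1 group. The first 50 coding bases, chosen after seeing the data, replaced protein identity, which was not run. A background from the negative control rows was not run, since their 95th percentile was 13.05 and 93.6% of probe sets lay under it. The likeness of other probe sets to Olfr1093 and Olfr1095 was not run, since the arrays fall into separate clusters by fraction. Dim signal limits the 10 receptors below background in all groups.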
